A study of Mus musculus with 47 samples.

Results

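The comparison described here sets the hippocampus against the prefrontal cortex (PFC) of mice that had received saline. Its members are 15 of the 47 libraries of the series, 7 labelled hippocampus and saline and 8 labelled PFC and saline, and each was taken by its tissue and treatment labels. The mice were DIO (diet-induced obese) animals with a mean body weight of 53 g. Per the labels' protocol they were housed in pairs and received isotonic saline once a day for 5 days, and were killed 2 hours after the last injection. No strain, sex, age or genetic modification was given in the sources used here, and lean mice were not part of the groups. That protocol describes whole hypothalamus from 6 mice given saline, whereas the tissue labels name hippocampus and PFC, so its schedule may not apply to the libraries used here. Whether libraries of a group came from different mice is not stated, so p-values reflect only how much these samples vary, which may be technical. The other 32 libraries came from the same regions after inhibitors of the PDZ-domain proteins PICK1 or PSD-95. The regional difference is also read in them, but they are not an independent check. All 47 libraries shared the filter on low counts, the scaling and the estimate of the spread.

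The hippocampus is a folded, phylogenetically old cortex in which granule cells of the dentate gyrus project through mossy fibres to pyramidal cells of CA3, which in turn project to CA1. The PFC is layered neocortex: its superficial layers hold neurons that project to other cortical areas, and its deep layers hold neurons that project to the striatum, the thalamus and the brainstem. Both regions share glutamatergic and GABAergic neurons, astrocytes, oligodendrocytes, microglia and vessels. The hippocampus borders a lateral ventricle with its ependyma and choroid plexus, and the PFC lies in front of and above the striatum. In pieces of bulk tissue, fewer cells of a type and less RNA per cell cannot be told apart.

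Total estimated counts were 8.34 ± 1.75 M (SD, n = 7) in hippocampus and 8.77 ± 1.52 M (M, mega; SD, n = 8) in PFC, a difference smaller than the spread between libraries (two-sided exact permutation test, p = 0.616). Mitochondrially encoded genes took 9.53 ± 0.81% of the counts in hippocampus and 9.97 ± 0.96% in PFC (two-sided exact permutation test, p = 0.353). Gene levels are in CPM (counts relative to the TMM-scaled library total), and a list's score averages the log2 CPM of those of its genes that were tested. Markers of 2 other tissues set single libraries apart. The striatal score was 7.53 in hippocampus replicate 1 against 2.74 to 3.01 in the other hippocampal libraries, and 5.51 in PFC replicate 1 against 2.57 to 3.98 in the other PFC libraries. The choroid plexus score was 6.35 in hippocampus replicate 5 against 2.04 to 3.08 in the other hippocampal libraries and -1.15 to -0.03 in PFC. PFC replicate 4 had a deep-layer score of 3.01 against 3.86 to 4.99 in the other PFC libraries, and without it 5649 genes were called and 528 exceeded 2-fold. All 4 stayed in the comparison, and counts that rest on the first 3 are given also without them.

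**Figure D1:**
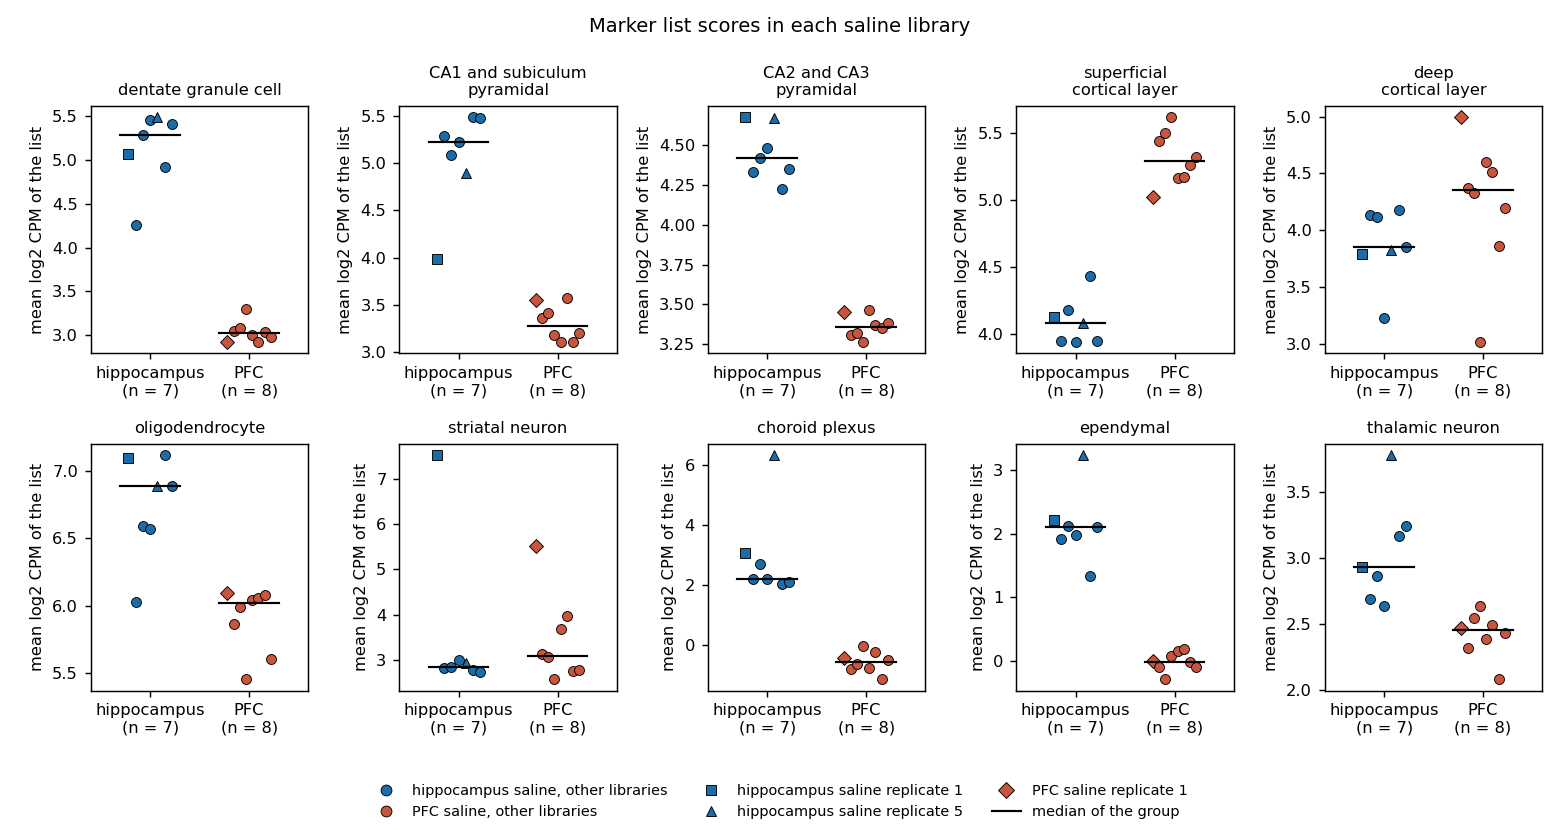
Mean log2 CPM of 10 marker lists (vertical axes) in each of the 7 hippocampal and 8 PFC saline libraries; squares, triangles and diamonds mark hippocampus replicates 1 and 5 and PFC replicate 1, and bars are group medians. The dentate, CA1, CA2 and CA3 and superficial-layer scores separate the regions without overlap, the deep-layer scores overlap, and the striatal and choroid plexus scores show the libraries that stand apart at 7.53, 5.51 and 6.35. The dentate and CA1 lists each hold 3 genes tested only through hippocampal libraries, and the CA2 and CA3 list holds 1. Part of the separation of these lists was therefore set by the filter on low counts.

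The regions differed in many genes, in both directions about equally. Of 15658 genes tested, 5994 (38.3%) passed: 3050 (19.5%) were higher in hippocampus and 2944 (18.8%) were lower at an adjusted p under 0.05. The median absolute difference of the genes that passed was 0.51 on the log2 scale, so most of them differed by much less than 2-fold. A second test asked for evidence that a gene differed by more than 2-fold, and 320 genes (2.04%) were higher and 236 (1.51%) were lower by that rule, together 556 (3.55%). Of the 556 genes, 504 were annotated as protein coding. In 1252 genes (8%) the lowest hippocampal library lay above the highest PFC library, and in 1294 genes (8.26%) the highest hippocampal library lay below the lowest PFC library. Throughout, a log2 difference is hippocampus minus PFC, and its median over all tested genes was 0.01. Without hippocampus replicates 1 and 5 and PFC replicate 1, 5042 genes passed and 484 exceeded 2-fold, and 454 of those 484 were among the 556.

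**Figure D2:**
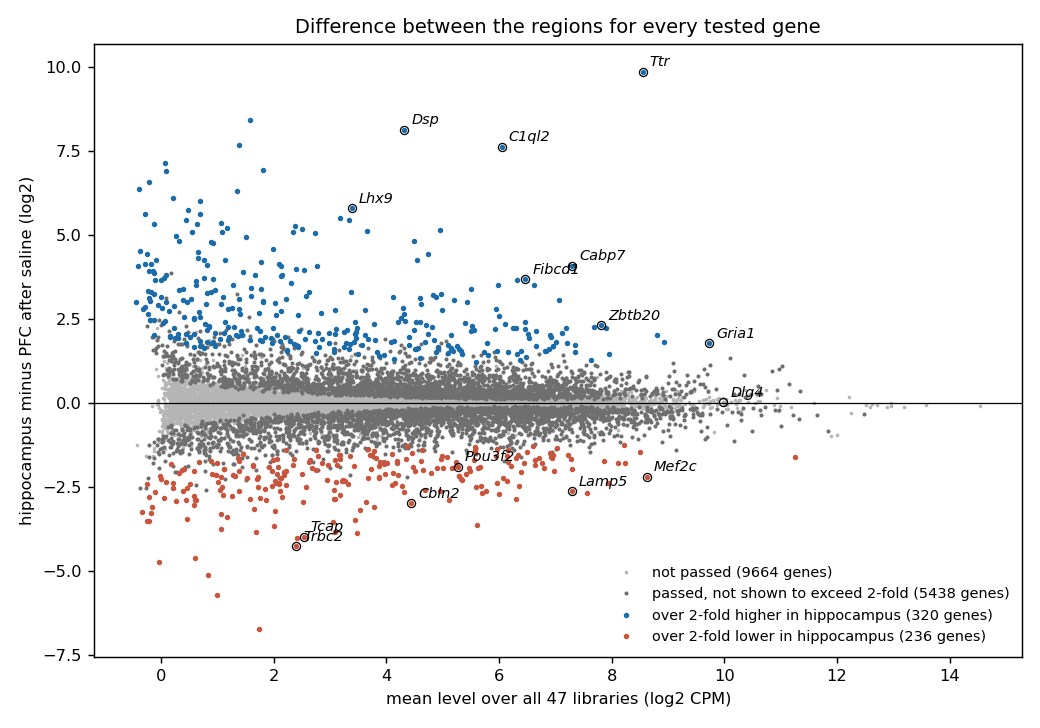
Log2 difference between hippocampus and PFC after saline (vertical axis) against the mean level over all 47 libraries (horizontal axis, log2 CPM) for each tested gene; blue and red points are the 320 and 236 genes shown to exceed 2-fold. Genes above 5 include C1ql2, Dsp, Lhx9 and Ttr, Alb lies at -5.72, and Dlg4, the gene of PSD-95, lies at 0.02.

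The 4 genes that served to check the regions followed their labels in each library. C1ql2, which encodes a secreted C1q-like protein of mossy fibre synapses, measured 61.2 CPM at the lowest, 150.1 at the median and 178 at the highest of the hippocampal libraries, and 0.23, 0.653 and 1.04 CPM at the lowest, median and highest of the PFC libraries. The groups did not overlap, and the lowest hippocampal library, replicate 2, was still far above the highest PFC library. Its fitted level was 198-fold higher in hippocampus, a log2 difference of 7.63 (SE 0.55, adjusted p = 6.40e-15). Fibcd1, a membrane receptor that is abundant in CA1 pyramidal cells, measured 57.3 CPM at the lowest, 179 at the median and 241 at the highest of the hippocampal libraries and 10.1 to 16.6 CPM (median 12.7) in PFC. Hippocampus replicate 1, the library with striatal markers, was the lowest of its group, and the groups did not overlap. The log2 difference of Fibcd1 was 3.67 (SE 0.28, adjusted p = 2.70e-14).

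Lamp5 and Pou3f2 went the other way. Lamp5, a membrane protein of the LAMP family that marks superficial-layer neurons and a class of interneurons, measured 30.5 to 56.6 CPM (median 35.5) in hippocampus and 141 to 365 CPM (median 244) in PFC. The lowest PFC library was replicate 1, and it remained above each hippocampal library. The level was 6.2-fold higher in PFC, a log2 difference of -2.63 (SE 0.21, adjusted p = 5.46e-14). Pou3f2, a POU-domain transcription factor of upper-layer neurons also known as Brn2, measured 11.1 to 19.6 CPM (median 15.2) in hippocampus and 44.1 to 75.7 CPM (median 59) in PFC, again without overlap, with a log2 difference of -1.91 (SE 0.15, adjusted p = 8.24e-14).

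The upstream regions of these 4 genes are shown because these genes served to check the regions and their promoters differ widely in CpG dinucleotides, the sites at which vertebrate promoters are methylated. Each run holds the 250 bases before the start of transcription, 5′ to 3′ on the gene's strand, from RefSeq on GRCm38.p6, with CG in capitals.
C1ql2, chr1:120340332-120340581, plus strand: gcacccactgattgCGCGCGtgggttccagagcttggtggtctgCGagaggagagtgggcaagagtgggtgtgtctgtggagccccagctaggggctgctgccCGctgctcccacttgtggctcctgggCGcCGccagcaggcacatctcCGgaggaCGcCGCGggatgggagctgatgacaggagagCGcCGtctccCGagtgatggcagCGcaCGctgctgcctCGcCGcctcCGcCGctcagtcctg
Fibcd1, chr2:31846006-31846255, minus strand: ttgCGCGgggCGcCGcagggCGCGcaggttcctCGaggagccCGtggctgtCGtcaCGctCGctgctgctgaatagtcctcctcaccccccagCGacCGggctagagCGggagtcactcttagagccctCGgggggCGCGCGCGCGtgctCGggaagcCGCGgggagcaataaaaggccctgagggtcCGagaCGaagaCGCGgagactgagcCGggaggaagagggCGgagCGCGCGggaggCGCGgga
Lamp5, chr2:136052089-136052338, plus strand: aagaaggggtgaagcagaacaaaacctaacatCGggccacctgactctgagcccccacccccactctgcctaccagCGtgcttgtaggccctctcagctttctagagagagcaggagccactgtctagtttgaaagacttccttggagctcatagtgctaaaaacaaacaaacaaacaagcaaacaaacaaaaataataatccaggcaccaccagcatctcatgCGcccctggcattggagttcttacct
Pou3f2, chr4:22488367-22488616, minus strand: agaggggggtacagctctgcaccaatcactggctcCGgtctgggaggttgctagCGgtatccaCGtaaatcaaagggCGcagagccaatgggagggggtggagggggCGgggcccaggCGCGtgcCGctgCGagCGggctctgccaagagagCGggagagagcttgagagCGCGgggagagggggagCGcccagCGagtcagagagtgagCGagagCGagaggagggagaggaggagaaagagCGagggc
The runs hold 20 CpG in C1ql2, 34 in Fibcd1, 3 in Lamp5 and 18 in Pou3f2, against a median of 16 (quartiles 9 and 23) over 10818 upstream regions of the same length. C1ql2, Fibcd1 and Pou3f2 lay above that median, and Lamp5 lay under the lower quartile. Any relation between these counts and the regional differences was not tested.

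**Figure D3:**
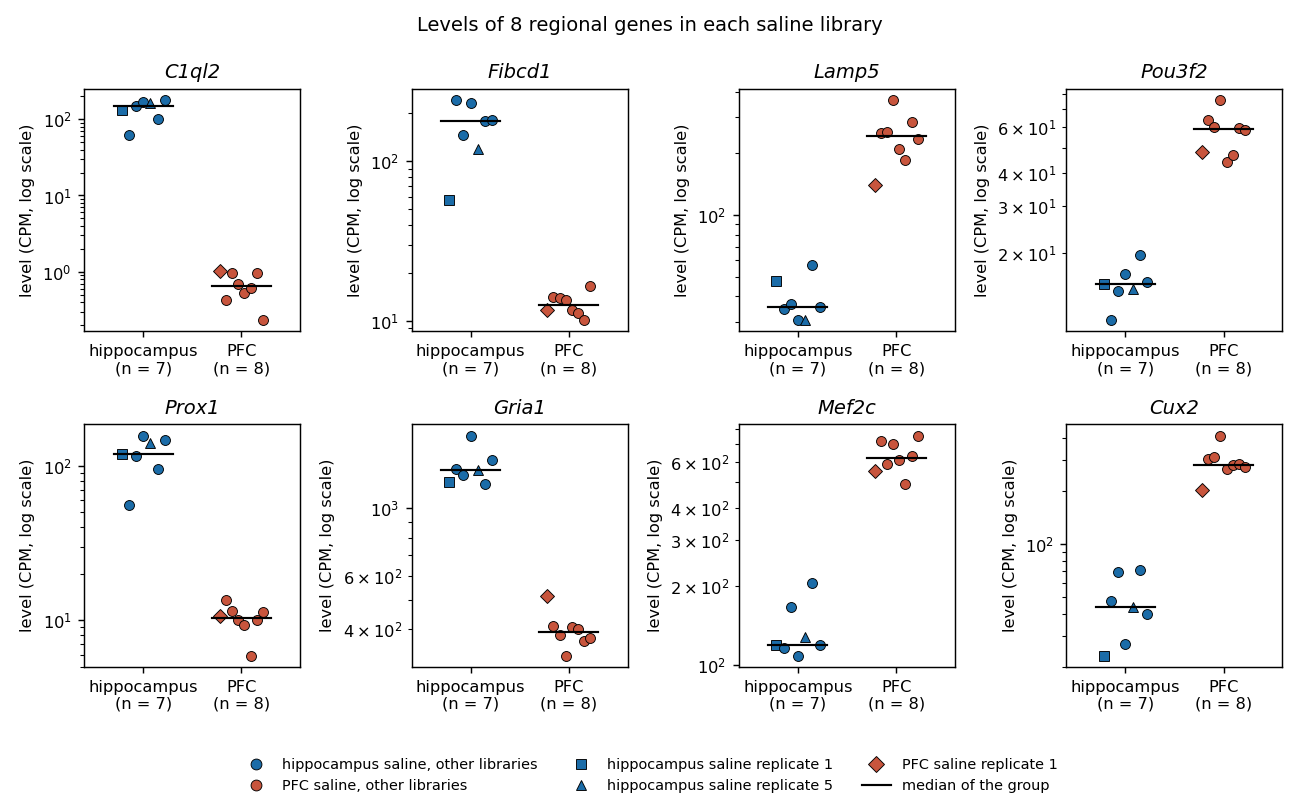
Levels of 8 genes in each saline library (vertical axes, CPM on a log scale) for the 7 hippocampal and 8 PFC libraries; squares, triangles and diamonds mark the 3 libraries with markers of other tissue, and bars are medians. C1ql2, Fibcd1, Prox1 and Gria1 are higher in each hippocampal library and Lamp5, Pou3f2, Mef2c and Cux2 in each PFC library.

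Markers of the hippocampal subfields were higher in hippocampus in most cases. In each list, the percentages after a count are shares of the list's tested genes, to be read against the 19.5% of all tested genes that were higher and the 18.8% that were lower. Counts over 2-fold are to be read against the 2.04% of all tested genes that were higher by that rule and the 1.51% that were lower. Of 15 dentate granule cell markers tested, 10 (66.7%) were higher and 1 (6.67%) was lower, and 8 were more than 2-fold higher. C1ql2, Dsp and Tdo2 met the filter on low counts only through hippocampal libraries, so that their direction was set by being tested. The median log2 difference of the list was 1.82. Prox1, the homeobox factor that sets and maintains granule cell identity, measured 55.9 to 157 CPM (median 119) in hippocampus and 5.88 to 13.5 CPM (median 10.4) in PFC, with a log2 difference of 3.51 (SE 0.29, adjusted p = 2.94e-13). Hippocampus replicate 2 had the lowest Prox1, C1ql2 and dentate score (4.26 against 4.92 to 5.49), and none of these overlapped with PFC. Dsp, which encodes the desmosomal plaque protein desmoplakin, measured 11.2 to 64.5 CPM (median 48.3) in hippocampus and 0.104 to 0.213 CPM (median 0.129) in PFC, a log2 difference of 8.13 (SE 0.81, adjusted p = 5.12e-11). Lct, the lactase gene, measured 12 to 113 CPM (median 65.3) in hippocampus and 0.933 to 3.16 CPM (median 1.96) in PFC, and its log2 difference was 5.14 (SE 0.54, adjusted p = 2.03e-10). The exception was Pdzrn3, a PDZ and RING domain protein, which was lower in hippocampus, at 6.8 to 21.1 CPM (median 11.8) in hippocampus and 21.3 to 86 CPM (median 59.5) in PFC, with a log2 difference of -2.17 (SE 0.23, adjusted p = 2.24e-10).

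Of 12 CA1 and subiculum markers, 8 (66.7%) were higher, 7 of them by more than 2-fold, and none was lower. Spink8, Lefty1 and Nts met the filter only through hippocampal libraries. Their median log2 difference was 2.17. Spink8, a serine protease inhibitor, measured 5.44 to 14 CPM (median 9.25) in hippocampus and 0 to 0.929 CPM (median 0.146) in PFC, with a log2 difference of 5.27 (SE 0.49, adjusted p = 6.57e-12). Gpr161, an orphan receptor of the primary cilium, measured 22 to 99.3 CPM (median 81.7) in hippocampus and 6.91 to 11.4 CPM (median 9.01) in PFC, with its lowest hippocampal value again in replicate 1, and its log2 difference was 2.99 (SE 0.26, adjusted p = 1.28e-12). The other 4 did not pass. Among them Wfs1, a protein of the endoplasmic reticulum, had a log2 difference of 0.23 (SE 0.23, adjusted p = 0.463), and Mpped1, a metallophosphoesterase, one of -0.38 (SE 0.22, adjusted p = 0.179). The CA1 score was 3.99 in hippocampus replicate 1 and 4.9 to 5.48 in the other hippocampal libraries, against 3.11 to 3.57 in PFC. The summed level of the list did overlap, at 341 to 1075 CPM in hippocampus and 520 to 621 CPM in PFC, with the lowest value in hippocampus replicate 1.

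Of 14 CA2 and CA3 markers tested, 11 (78.6%) were higher and 1 (7.14%) was lower, with a median log2 difference of 1.05. Iyd met the filter only through hippocampal libraries. Homer3, a postsynaptic scaffold of the Homer family, measured 46.1 to 64.8 CPM (median 58.3) in hippocampus and 4.41 to 8.98 CPM (median 6.43) in PFC, with a log2 difference of 3.15 (SE 0.22, adjusted p = 3.36e-15). Iyd, which removes iodine from iodotyrosines in the thyroid, was low in counts but separated the regions, at 2.85 to 6.13 CPM (median 4.2) in hippocampus and 0 to 0.358 CPM (median 0.095) in PFC, with a log2 difference of 5.09 (SE 0.52, adjusted p = 6.74e-11). Stard5, a sterol-binding START protein, had a log2 difference of 1.5 (SE 0.12, adjusted p = 2.35e-14) and overlaps Il16 on the opposite strand, so that their reads may not be fully separable. The lower member was Coch, a secreted protein known from the inner ear. It measured 0.689 to 17.2 CPM (median 2.63) in hippocampus and 16.5 to 25.8 CPM (median 21.4) in PFC, the highest hippocampal value being that of replicate 1, and had a log2 difference of -2.25 (SE 0.38, adjusted p = 6.26e-06), or -3.28 without the 3 libraries. Without those 3 libraries, 7 of the 14 were higher and 1 was lower.

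Superficial-layer markers were lower in hippocampus, and deep-layer markers were split. Of 14 superficial-layer markers, 11 (78.6%) were lower and 3 (21.4%) were higher, and 8 were more than 2-fold lower. The list's median log2 difference was -1.79. Cux2, the homeobox factor of upper-layer neurons, measured 23 to 70.9 CPM (median 43.5) in hippocampus and 202 to 414 CPM (median 283) in PFC, with a log2 difference of -2.68 (SE 0.24, adjusted p = 3.73e-12). Rspo1, a secreted enhancer of Wnt signalling, measured 0.472 to 6.57 CPM (median 1.37) in hippocampus and 8.71 to 31.5 CPM (median 21.9) in PFC, with a log2 difference of -3.11 (SE 0.39, adjusted p = 1.68e-08). Among the 3 that were higher were Mdga1, an adhesion protein that binds neuroligins, with a log2 difference of 2.13 (SE 0.28, adjusted p = 3.57e-08), and Matn2, an extracellular matrix protein, with 1.45 (SE 0.24, adjusted p = 4.54e-06).

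Of 18 deep-layer markers, 5 (27.8%) were higher, 5 (27.8%) were lower and 8 did not pass, with a median log2 difference of -0.31. The scores overlapped, at 3.22 to 4.18 in hippocampus and 3.01 to 4.99 in PFC, and the lowest PFC score belonged to replicate 4. Without PFC replicate 4 again 5 were higher and 5 lower, with a median of -0.42. Bcl11b, the zinc finger factor Ctip2 that corticospinal and CA1 neurons both use, was higher in hippocampus, at 140.0 to 285 CPM (median 203) in hippocampus and 34.5 to 127 CPM (median 64) in PFC, with a log2 difference of 1.66 (SE 0.29, adjusted p = 7.55e-06). Hs3st4, a heparan sulfate sulfotransferase, was also higher, with a log2 difference of 1.14 (SE 0.21, adjusted p = 2.82e-05). Deptor, an inhibitor of mTOR, and Tox, an HMG-box factor, were lower, with log2 differences of -1.45 (SE 0.23, adjusted p = 2.10e-06) and -1.36 (SE 0.25, adjusted p = 2.18e-05). Fezf2, the factor that specifies subcortically projecting neurons, measured 18.9 to 64.7 CPM (median 37.6) in hippocampus and 14.1 to 42.6 CPM (median 31.7) in PFC and did not pass, with a log2 difference of 0.34 (SE 0.31, adjusted p = 0.425).

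Of 34 transcription factors that pattern the forebrain, 8 (23.5%, near the share of all genes) were higher in hippocampus and 13 (38.2%) were lower, 2 and 4 of them by more than 2-fold, with a median log2 difference of -0.09. Zbtb20, a zinc finger factor required for hippocampal neuron identity, measured 261 CPM at the lowest, 387 at the median and 538 at the highest of the hippocampal libraries and 56.6 to 106 CPM (median 73.1) in PFC, with a log2 difference of 2.31 (SE 0.21, adjusted p = 3.63e-12). Lhx9, a LIM-homeobox factor, was close to 0 in PFC, at 10.2 to 23.5 CPM (median 18.8) in hippocampus and 0 to 0.687 CPM (median 0.394) in PFC, with a log2 difference of 5.80 (SE 0.40, adjusted p = 1.17e-15). It met the filter on low counts only through hippocampal libraries, so that its direction was set by being tested. Nfia, which supports both hippocampal formation and astrocytes, differed less, with a log2 difference of 0.52 (SE 0.09, adjusted p = 1.14e-05).

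Mef2c, the MADS-box factor that shapes cortical synapse number, measured 108 CPM at the lowest, 119 at the median and 205 at the highest of the hippocampal libraries and 493 to 754 CPM (median 621) in PFC. All hippocampal libraries lay below all PFC libraries, and the level was 4.59-fold higher in PFC, a log2 difference of -2.20 (SE 0.13, adjusted p = 1.75e-18). Id2, an inhibitor of basic helix-loop-helix factors, had a log2 difference of -1.12 (SE 0.08, adjusted p = 2.05e-15). Mef2c and Id2, named for their small p, both separated the groups without overlap.

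The smallest p-values for exceeding 2-fold in favour of hippocampus belonged to Cabp7 and Pkp2. The adjusted p-values that follow are those of the F test against no difference, not of the 2-fold test. Cabp7, a calcium sensor of the Golgi, measured 271 CPM at the lowest, 299 at the median and 423 at the highest of the hippocampal libraries and 13 to 28.3 CPM (median 18.5) in PFC, 16.9-fold higher, with a log2 difference of 4.08 (SE 0.19, adjusted p = 2.38e-20). Pkp2, which encodes the desmosomal protein plakophilin 2 and so belongs to the same junction as desmoplakin, measured 37.5 to 52.8 CPM (median 40.3) in hippocampus and 3.4 to 6.06 CPM (median 5.45) in PFC, with a log2 difference of 3.13 (SE 0.17, adjusted p = 3.41e-19). Npy2r, the presynaptic Y2 receptor of neuropeptide Y, measured 31.1 to 61.9 CPM (median 48) in hippocampus and 0.774 to 2.38 CPM (median 1.39) in PFC, with a log2 difference of 4.82 (SE 0.35, adjusted p = 1.01e-14). Il16, which encodes a PDZ-domain precursor of a cytokine, had a log2 difference of 5.13 (SE 0.39, adjusted p = 2.35e-14). St18, a zinc finger factor of the Myt family, had one of 3.13 (SE 0.21, adjusted p = 6.76e-16). Slc9a4, a sodium-proton exchanger, was among those with the largest differences at a mean of at least 10 CPM, at 5.04 (SE 0.51, adjusted p = 4.97e-11). In PFC, Slc9a4 measured 0.119 to 0.687 CPM and Il16 0.518 to 1.39 CPM, where the filter on low counts required 1.245 CPM. Both may therefore have met the filter only through hippocampal libraries, in which case their direction was set by being tested.

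Genes lower in hippocampus by the same rules included some with well-known roles outside the brain. Tcap, the titin cap protein of the sarcomere, measured 0.124 to 1.88 CPM (median 0.738) in hippocampus and 6.84 to 14.6 CPM (median 11.8) in PFC, with a log2 difference of -3.99 (SE 0.31, adjusted p = 1.83e-14). Myl4, an atrial myosin light chain, measured 0.495 to 2.35 CPM (median 1.05) in hippocampus and 4.53 to 24.2 CPM (median 18.4) in PFC, with a log2 difference of -3.86 (SE 0.35, adjusted p = 2.08e-12). Trbc2, a constant region of the T cell receptor beta chain, measured 0 to 3.29 CPM (median 0.211) in hippocampus and 5.08 to 14.3 CPM (median 11.5) in PFC, with a log2 difference of -4.27 (SE 0.50, adjusted p = 2.47e-09), and Cd6, a T cell surface receptor, had one of -3.66 (SE 0.33, adjusted p = 1.43e-12). None of these 4, chosen for a small p or a large difference, overlapped between the regions. The hippocampal medians of Tcap, Myl4 and Trbc2 lay under the 1.245 CPM that the filter on low counts required, and Cd6 measured 0 to 1.58 CPM in hippocampus. A gene that meets the filter only through PFC libraries has its direction set by being tested. Whether this held for these 4, or for the further genes below, was not determined. Of all tested genes, 8.26% lay below PFC in hippocampus without overlap. Tmem132d, a transmembrane protein, measured 10.5 to 30 CPM (median 17.2) in hippocampus and 88.5 to 119 CPM (median 100.1) in PFC, with a log2 difference of -2.38 (SE 0.14, adjusted p = 8.10e-18). Car10, a carbonic anhydrase-related ligand of neurexins, measured 47 to 82.4 CPM (median 56.6) in hippocampus and 214 to 272 CPM (median 248) in PFC, with a log2 difference of -1.98 (SE 0.12, adjusted p = 3.70e-17). Further large differences were those of the metalloprotease Adam33 (-3.88), of Igfn1 (-3.64), of the tetraspanin Tspan11 (-3.56) and of the fibrillar collagen Col24a1 (-3.19), whose PFC minimum in replicate 4 fell within the hippocampal range.

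The 20 genes with the smallest p and the 20 with the largest differences were recomputed without hippocampus replicates 1 and 5 and PFC replicate 1. All 20 and all 20 kept their direction and exceeded 2-fold without these libraries, with a median absolute shift of 0.09 and 0.21 on the log2 scale. Some of these genes, such as C1ql2, Dsp and Lhx9, met the filter on low counts only through hippocampal libraries, so their direction was set by being tested. The shift was larger than 1.5-fold for Ttr, from 9.86 to 7.12, for Clic6, from 5.43 to 3.99, and for Ccdc153, from 7.68 to 8.38, fitted values that depend on the prior count because 1 count was all that PFC held. Ttr and Clic6 are choroid plexus genes and Ccdc153 is a gene of motile cilia.

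Most genes of the ventricular lining were close to 0 in PFC. Of 12 choroid plexus markers, 9 were tested, and 8 of these met the filter on low counts only through hippocampal libraries. They could therefore pass only as higher in hippocampus, so that the calls of this list are not counted here and its genes are described by their levels. Ttr, the thyroid hormone carrier transthyretin and the hallmark transcript of this epithelium, measured 49.7 CPM at the lowest, 96.2 at the median and 5252 at the highest of the hippocampal libraries, and 0, 0.24 and 4.67 CPM at the lowest, median and highest of the PFC libraries. The highest value came from replicate 5, and the other 6 hippocampal libraries lay between 49.7 and 257 CPM, still above PFC. The log2 difference of Ttr was 9.86 (SE 1.52, adjusted p = 1.10e-06), and it missed the threshold under voom with sample weights (9.08, limma adjusted p = 0.0782). Kl, the klotho gene, measured 20.8 to 180.0 CPM (median 27.8) in hippocampus and 0.973 to 3.98 CPM (median 2.79) in PFC, with a log2 difference of 4.24 (SE 0.48, adjusted p = 1.32e-09), or 3.43 without the 3 libraries. Otx2, a homeobox factor of the choroid plexus, had 311 counts over the hippocampal libraries and 0 over the PFC libraries, so it was at least 122-fold higher in hippocampus, counted against a floor of 3 counts over the group.

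All 11 ependymal markers were tested, 8 of them only through hippocampal libraries, so their calls are not counted either. Ak7, an adenylate kinase of motile cilia, measured 1.72 to 12.3 CPM (median 5.03) in hippocampus and 0.104 to 0.464 CPM (median 0.129) in PFC, with a log2 difference of 4.93 (SE 0.44, adjusted p = 8.20e-13). Spef2, a cilium assembly protein, measured 2.5 to 8.23 CPM (median 3.83) in hippocampus and 0.358 to 1.37 CPM (median 0.546) in PFC, with a log2 difference of 2.64 (SE 0.26, adjusted p = 2.39e-11). Ccdc153 had 358 counts over the hippocampal libraries and 1 over the PFC libraries, a ratio of 422 (95% exact interval 75.2 to 16705, counting error only), and Tmem212, a transmembrane protein of ciliated cells, had 126 and 0, which is at least 49.5-fold. The ependymal score was 1.34 to 3.24 in hippocampus and -0.29 to 0.19 in PFC. The scores of neither list overlapped between the regions, but they average mostly these same genes. Their separation was therefore largely set by the filter and adds no support. In each list not yet described, at most 4 tested members met the filter only through hippocampal libraries, and of those named Drd2, Ntf3 and Htr4 are examples. The part of these cells in the other regional differences was not tested.

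Striatal markers rested on single libraries. Of 10 tested, 3 (30%) were higher and none was lower, with a median log2 difference of 1.22, and without the 3 libraries none was higher and 2 were lower, with a median of -0.26. Drd2, the D2 dopamine receptor, measured 0.939 to 97.3 CPM (median 2.24) in hippocampus and 0 to 18.4 CPM (median 0.602) in PFC, the highest of each group being replicate 1. Its log2 difference was 2.21 (SE 0.86, adjusted p = 0.0376), and it was -0.53 (adjusted p = 0.65) without hippocampus replicate 1 and 0.83 (adjusted p = 0.521) without the 3 libraries. Rgs9, a striatal regulator of G-protein signalling, went from 1.71 to -0.29 (adjusted p = 0.701) without hippocampus replicate 1. Both also missed the threshold without single PFC libraries, for example at adjusted p = 0.0586 for Rgs9 and 0.0665 for Drd2 without PFC replicate 4. Penk, the enkephalin precursor, and Ppp1r1b, which encodes DARPP-32, did not pass, at 1.09 (SE 0.58, adjusted p = 0.138) and 0.33 (SE 0.53, adjusted p = 0.655), and Ppp1r1b was -1.31 (adjusted p = 0.0111) without hippocampus replicate 1.

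Of 12 thalamic markers, 4 (33.3%) were higher and none was lower, with a median log2 difference of 0.68, and without hippocampus replicate 5 there were 3 (median 0.55). Their score was 2.64 to 3.78 in hippocampus against 2.08 to 2.64 in PFC, with the highest value in hippocampus replicate 5. Lhx9, already described as tested only through hippocampal libraries, is on this list. So is Calb2, the calretinin gene of thalamic midline neurons, hilar mossy cells and interneurons. Calb2 measured 14.6 to 53.5 CPM (median 30.9) in hippocampus and 6.81 to 11.8 CPM (median 9.66) in PFC, with a log2 difference of 1.79 (SE 0.53, adjusted p = 0.00664). Of 8 olfactory bulb and tubercle markers tested, 1 (12.5%) was higher and none was lower.

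All oligodendrocyte genes tested were higher in hippocampus. All 14 passed (background 19.5%), none exceeded 2-fold by the second test, and the median log2 difference was 0.90. Cldn11, the tight-junction claudin of myelin, measured 79.6 to 166 CPM (median 139) in hippocampus and 51.7 to 75.5 CPM (median 66.5) in PFC, with a log2 difference of 1.00 (SE 0.21, adjusted p = 0.000187). Mal, a myelin proteolipid, measured 129.6 to 264 CPM (median 221) in hippocampus and 83.2 to 136 CPM (median 117) in PFC, with one of 0.94 (SE 0.20, adjusted p = 0.00022), and Cnp, a cytoplasmic myelin enzyme, one of 0.73 (SE 0.17, adjusted p = 0.000502). The summed level of the list was 3220 to 7481 CPM in hippocampus and 1928 to 3603 CPM in PFC, and the ranges overlapped. Without the 3 libraries, 12 of 14 were higher.

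Of 13 astrocyte markers, 4 (30.8%) were higher and 1 (7.69%) was lower, and the share called in either direction (38.5%) was near the 38.3% of all genes, with a median log2 difference of -0.02. Gfap, the intermediate filament of fibrous and reactive astrocytes, stood apart from its list, at 356 to 467 CPM (median 411) in hippocampus and 67.7 to 108 CPM (median 85.8) in PFC, 4.71-fold higher, with a log2 difference of 2.24 (SE 0.19, adjusted p = 2.86e-13). Aqp4, the water channel of astrocyte endfeet, had a log2 difference of 0.50 (SE 0.12, adjusted p = 0.000955). Aldh1l1, a folate enzyme used as a general astrocyte marker, was lower, at -0.48 (SE 0.09, adjusted p = 1.33e-05). Of 12 microglial markers, 3 (25%) were higher and none was lower (median 0.11), and Csf1r, the receptor on which microglia depend, had a log2 difference of 0.26 (SE 0.07, adjusted p = 0.00195). Of 11 endothelial markers, 7 (63.6%) were lower and none was higher (median -0.34), and Flt1, a VEGF receptor, measured 74 to 93.4 CPM (median 80.4) in hippocampus and 94.3 to 127 CPM (median 116) in PFC, with a log2 difference of -0.48 (SE 0.07, adjusted p = 7.92e-07). Leptomeningeal markers, a list added after the data had been seen, were lower in 5 of 10 (50%) and higher in none (median -0.76), for example Col1a2, a chain of type I collagen, at -1.63 (SE 0.35, adjusted p = 0.000234). Their score ranges overlapped, at 2.12 to 3.46 in hippocampus and 2.21 to 4.13 in PFC.

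Of 17 interneuron genes tested, 3 (17.6%) were higher and 4 (23.5%) were lower, both near the shares of all genes. Gad1, the GABA-synthesising enzyme, measured 206 to 290.3 CPM (median 237) in hippocampus and 219 to 289 CPM (median 263) in PFC, with a log2 difference of -0.12 (SE 0.17, adjusted p = 0.631). Sst, the somatostatin precursor, likewise overlapped fully, with a log2 difference of 0.05 (SE 0.20, adjusted p = 0.875). Vip, the vasoactive intestinal peptide of disinhibitory interneurons, was lower in hippocampus without overlap, at 4.58 to 17.3 CPM (median 11.3) in hippocampus and 37 to 65.2 CPM (median 44.7) in PFC, with a log2 difference of -1.95 (SE 0.22, adjusted p = 1.27e-09). Npy and Crh, the precursors of neuropeptide Y and corticotropin-releasing hormone, were also lower, at -1.03 (SE 0.13, adjusted p = 1.03e-08) and -2.07 (SE 0.29, adjusted p = 1.26e-07). Nos1, the neuronal nitric oxide synthase that binds PSD-95, was higher, at 104 to 175 CPM (median 117) in hippocampus and 30.2 to 56.9 CPM (median 42) in PFC, with a log2 difference of 1.53 (SE 0.21, adjusted p = 1.00e-07). Among 18 neuropeptide genes as a whole, 2 (11.1%) were higher and 8 (44.4%) were lower, and the 2 higher were Nts, the neurotensin precursor, at 4.49 (SE 0.65, adjusted p = 2.43e-07), and Grp, the gastrin-releasing peptide precursor, at 1.78 (SE 0.37, adjusted p = 0.00012). Nts was low, at 0 to 4.31 CPM in hippocampus and 0 to 0.213 CPM in PFC. It met the filter on low counts only through hippocampal libraries, so that its direction was set by being tested.

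Of 10 genes of progenitors and immature neurons tested, 3 (30%) were higher and 3 (30%) were lower. Neurod1, a proneural factor of granule cell precursors and young neurons, had a log2 difference of 0.87 (SE 0.22, adjusted p = 0.00151). Dcx, the doublecortin gene of migrating neurons, was lower in hippocampus, at 10.1 to 21 CPM (median 16) in hippocampus and 25.9 to 35.6 CPM (median 31.2) in PFC, with a log2 difference of -0.92 (SE 0.24, adjusted p = 0.00179).

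**Figure D4:**
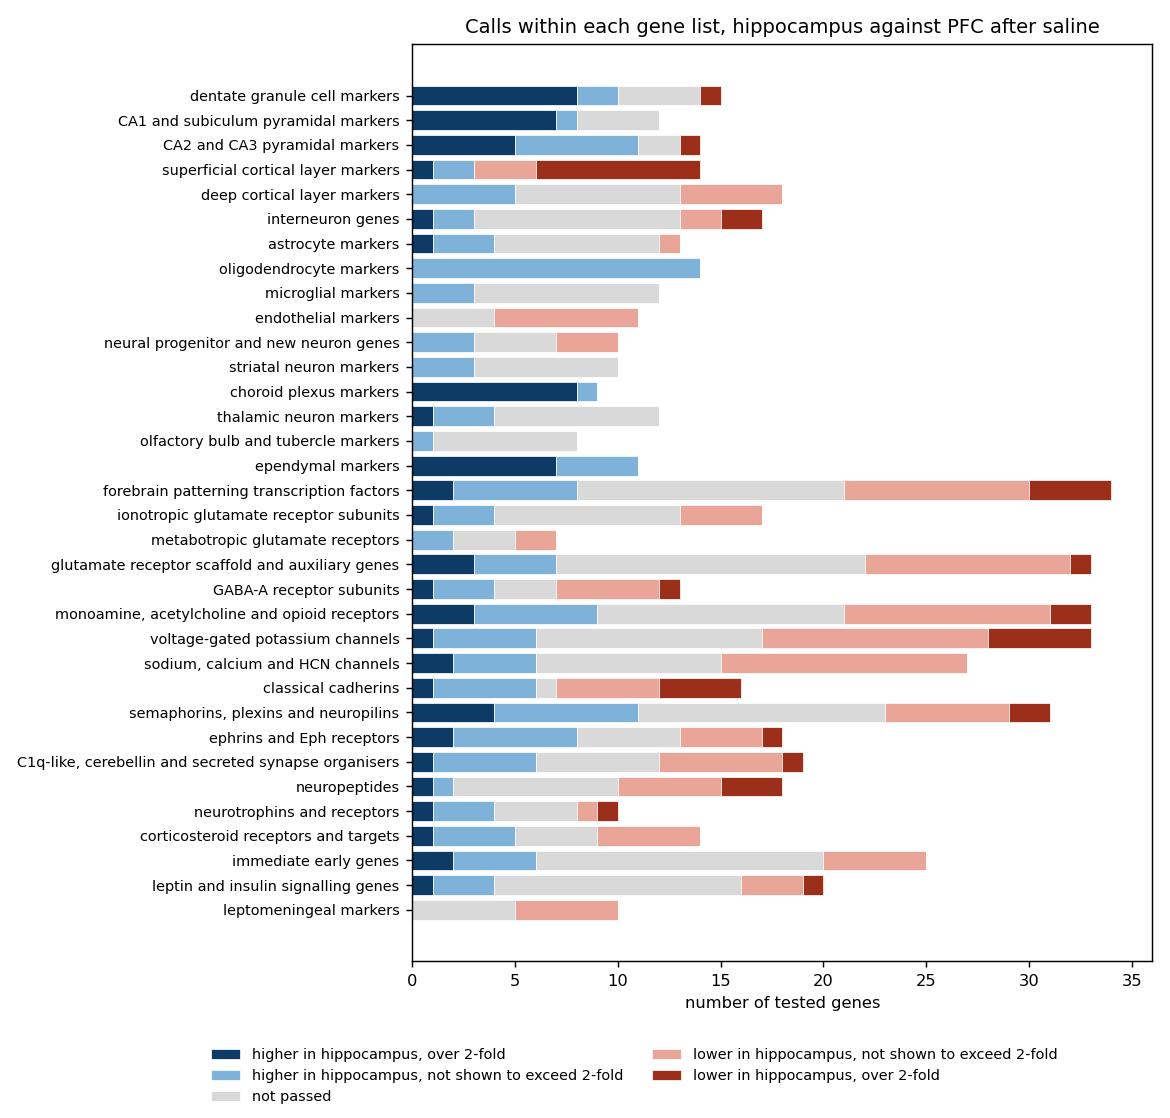
Number of tested genes (horizontal axis) of each gene list that were higher or lower in hippocampus than in PFC after saline, with darker shades for genes shown to exceed 2-fold and grey for genes that did not pass. All 14 oligodendrocyte markers are higher, the receptor and channel lists hold genes of both directions, and 8 choroid plexus and 8 ependymal markers could pass only as higher, since they were tested through hippocampal libraries alone.

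Of 17 ionotropic glutamate receptor subunits, 4 (23.5%) were higher in hippocampus and 4 (23.5%) were lower, both near the shares of all genes, with a median log2 difference of 0.15. Gria1, the AMPA receptor subunit GluA1, measured 1196 CPM at the lowest, 1339 at the median and 1732 at the highest of the hippocampal libraries and 327 to 513 CPM (median 392) in PFC, 3.43-fold higher and without overlap, with a log2 difference of 1.78 (SE 0.17, adjusted p = 7.41e-12). The subunits GluA3 and GluA4 were lower: Gria3 had a log2 difference of -0.42 (SE 0.09, adjusted p = 7.86e-05), and Gria4, at 44.5 to 68.8 CPM (median 61.7) in hippocampus and 105 to 130.2 CPM (median 116) in PFC, one of -0.96 (SE 0.13, adjusted p = 7.51e-08). Gria2, the subunit that makes the receptor calcium-impermeable, missed the threshold at 0.34 (SE 0.14, adjusted p = 0.0531), although its ranges did not overlap (719 to 992 CPM (median 759.9) in hippocampus and 589 to 685 CPM (median 618) in PFC). The kainate subunits Grik2 and Grik4 were higher, at 0.83 (SE 0.11, adjusted p = 3.55e-08) and 1.00 (SE 0.19, adjusted p = 3.25e-05), and Grik3 was lower, at -0.71 (SE 0.21, adjusted p = 0.00573). Grin2b, the NMDA receptor subunit GluN2B, did not pass, at 0.30 (SE 0.14, adjusted p = 0.076). Of 7 metabotropic receptors, 2 (28.6%) were higher and 2 (28.6%) were lower. The group I receptor Grm5 was higher, at 0.64 (SE 0.14, adjusted p = 0.000297), and Grm3 and Grm8 were lower, at -0.48 (SE 0.12, adjusted p = 0.00121) and -1.37 (SE 0.27, adjusted p = 6.68e-05).

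Of 33 genes of scaffold and auxiliary proteins of these receptors, 7 (21.2%) were higher and 11 (33.3%) were lower (median log2 difference 0.01). Dlg4, the gene of PSD-95, measured 935 to 1088 CPM (median 1038) in hippocampus and 927 to 1083 CPM (median 1016) in PFC and did not pass, with a log2 difference of 0.02 (SE 0.08, adjusted p = 0.842). Pick1 measured 37.4 to 48.2 CPM (median 44.2) in hippocampus and 41.8 to 53.2 CPM (median 49.8) in PFC and did not pass, with a log2 difference of -0.16 (SE 0.07, adjusted p = 0.0881), although it did without PFC replicate 2 (-0.20, adjusted p = 0.0354). Thus neither target of the series' inhibitors differed between the regions beyond the test's threshold in the full set. Shisa6, which holds AMPA receptors at the postsynaptic density, measured 155 CPM at the lowest, 187 at the median and 245 at the highest of the hippocampal libraries and 11.9 to 23.9 CPM (median 15.3) in PFC, with a log2 difference of 3.52 (SE 0.22, adjusted p = 9.13e-17). Cnih2, the cornichon that slows AMPA receptor gating, measured 314 to 463 CPM (median 365) in hippocampus and 121 to 164 CPM (median 134) in PFC, with a log2 difference of 1.44 (SE 0.14, adjusted p = 3.77e-11). Going the other way, Gsg1l, an auxiliary subunit that suppresses AMPA currents, measured 36.4 to 113 CPM (median 57.5) in hippocampus and 164 to 209 CPM (median 171) in PFC, with a log2 difference of -1.49 (SE 0.17, adjusted p = 1.18e-09). Cacng2, the gene of stargazin, and Dlg1, which encodes SAP97, were lower too, at -0.76 (SE 0.10, adjusted p = 1.11e-08) and -0.72 (SE 0.08, adjusted p = 3.37e-10).

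Of 13 GABA-A receptor subunits tested, 4 (30.8%) were higher and 6 (46.2%) were lower, with a median log2 difference of -0.32. Gabra5, the alpha subunit of extrasynaptic hippocampal receptors, measured 163 CPM at the lowest, 197 at the median and 273 at the highest of the hippocampal libraries and 40.1 to 63.9 CPM (median 48.3) in PFC, with a log2 difference of 2.03 (SE 0.24, adjusted p = 2.32e-09). Gabra2 and Gabrb1 were higher by less, at 0.75 (SE 0.13, adjusted p = 4.16e-06) and 0.64 (SE 0.10, adjusted p = 5.00e-07). Gabra3 was lower, at -1.64 (SE 0.18, adjusted p = 5.10e-10), and so was Gabrd, the delta subunit of tonic inhibition, at -1.24 (SE 0.24, adjusted p = 5.81e-05) with overlapping ranges.

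Among 33 monoamine, acetylcholine and opioid receptor genes, 9 (27.3%) were higher and 12 (36.4%) were lower. Among the higher ones, 3 exceeded 2-fold, all of which met the filter on low counts only through hippocampal libraries. Htr4, the Gs-coupled serotonin receptor, measured 8.92 to 15.6 CPM (median 11) in hippocampus and 0.275 to 1.15 CPM (median 0.734) in PFC, with a log2 difference of 4.06 (SE 0.30, adjusted p = 4.55e-15). Drd5, a D1-class dopamine receptor, measured 7.91 to 13.9 CPM (median 9.7) in hippocampus and 0.275 to 2.31 CPM (median 0.919) in PFC, with a log2 difference of 3.28 (SE 0.29, adjusted p = 6.15e-13). Htr5b, a serotonin receptor without a functional human counterpart, measured 0.866 to 9.12 CPM (median 4.75) in hippocampus and 0 to 0.973 CPM (median 0.437) in PFC, with a log2 difference of 3.42 (SE 0.40, adjusted p = 2.12e-09) and hippocampus replicate 1 inside the PFC range. Htr2a, the serotonin receptor targeted by psychedelics and atypical antipsychotics, was lower, at 4.5 to 8.8 CPM (median 6.89) in hippocampus and 16.9 to 28.8 CPM (median 19.3) in PFC, with a log2 difference of -1.64 (SE 0.23, adjusted p = 1.12e-07). Htr5a and Adrb1, the beta-1 adrenergic receptor, were lower as well, at -1.11 (SE 0.10, adjusted p = 6.00e-13) and -1.14 (SE 0.09, adjusted p = 8.93e-14). Chrm1, the main muscarinic receptor of both regions, measured 230.1 to 299.6 CPM (median 252) in hippocampus and 198 to 236 CPM (median 224) in PFC and did not pass, with a log2 difference of 0.20 (SE 0.24, adjusted p = 0.541).

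Of 33 voltage-gated potassium channel genes tested, 16 (48.5%) were lower in hippocampus and 6 (18.2%) were higher, with a median log2 difference of -0.34. Kcnh7, an Erg-type channel, measured 21 to 79.8 CPM (median 39.1) in hippocampus and 163 to 233 CPM (median 183) in PFC, with a log2 difference of -2.03 (SE 0.21, adjusted p = 9.04e-11). Kcns1, a silent subunit that modifies Kv2 channels, had one of -1.59 (SE 0.15, adjusted p = 4.38e-12), and Kcna2, a subunit of axonal Kv1 channels, one of -1.03 (SE 0.11, adjusted p = 1.01e-10). On the other side, Kcng2, another silent subunit, measured 21 to 30.2 CPM (median 28.6) in hippocampus and 6.5 to 8.72 CPM (median 7.41) in PFC, with a log2 difference of 1.84 (SE 0.23, adjusted p = 9.82e-09), and Kcnd3 and Kcna4, both subunits of A-type current, were at 0.60 (SE 0.13, adjusted p = 0.000146) and 0.84 (SE 0.20, adjusted p = 0.000569).

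Of 27 sodium, calcium and HCN channel genes, 6 (22.2%) were higher and 12 (44.4%) were lower, with a median log2 difference of -0.25. Scn3b, an auxiliary sodium channel subunit, measured 196 to 326 CPM (median 232) in hippocampus and 53.7 to 93 CPM (median 72) in PFC, with a log2 difference of 1.77 (SE 0.22, adjusted p = 9.12e-09). Cacna1h, the T-type channel Cav3.2, measured 146 to 254 CPM (median 223) in hippocampus and 49.4 to 88.7 CPM (median 56.4) in PFC, with a log2 difference of 1.80 (SE 0.23, adjusted p = 2.62e-08), while its relative Cacna1i, the channel Cav3.3, was lower, at -0.87 (SE 0.12, adjusted p = 1.30e-07). Cacnb4, an auxiliary subunit of calcium channels, was lower, at -1.14 (SE 0.14, adjusted p = 3.32e-09).

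Of 16 classical cadherins, which join cells through calcium-dependent adhesion, 6 (37.5%) were higher, 9 (56.2%) were lower and 1 did not pass. Cdh9 and Cdh8 were higher, at 31 to 58.5 CPM (median 46.3) in hippocampus and 3.71 to 21.4 CPM (median 12) in PFC for Cdh9, with log2 differences of 1.82 (SE 0.30, adjusted p = 4.39e-06) and 1.29 (SE 0.15, adjusted p = 2.32e-09). Cdh22 measured 11.9 to 27.3 CPM (median 18.6) in hippocampus and 55.5 to 95.2 CPM (median 77.1) in PFC, with a log2 difference of -1.92 (SE 0.14, adjusted p = 8.32e-15), and Cdh18 and Cdh6 were lower too, at -1.76 (SE 0.17, adjusted p = 8.26e-12) and -2.31 (SE 0.27, adjusted p = 1.64e-09). None of these 5, chosen for their small p, overlapped between the regions. In the whole list of 16, 4 lay above and 6 below PFC without overlap, against 8% and 8.26% of all tested genes.

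Of 31 semaphorins, plexins and neuropilins, 11 (35.5%) were higher and 8 (25.8%) were lower. Both neuropilins, the co-receptors of class 3 semaphorins, were higher in hippocampus: Nrp1 measured 103 to 158 CPM (median 132) in hippocampus and 20.1 to 34.9 CPM (median 27.7) in PFC and Nrp2 59.9 to 105 CPM (median 91.4) in hippocampus and 20.1 to 39.4 CPM (median 24.5) in PFC. Their log2 differences were 2.24 (SE 0.18, adjusted p = 8.93e-14) and 1.77 (SE 0.21, adjusted p = 3.13e-09). Sema3a, a ligand of neuropilin 1, was lower, at 1.62 to 5.07 CPM (median 2.04) in hippocampus and 9.36 to 15.6 CPM (median 13.7) in PFC, with a log2 difference of -2.31 (SE 0.30, adjusted p = 2.08e-08). Sema3e, a ligand of plexin D1, was higher, at 1.69 (SE 0.23, adjusted p = 4.77e-08), and its receptor gene Plxnd1 was lower, at -1.65 (SE 0.22, adjusted p = 6.11e-08).

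Of 18 ephrins and Eph receptors, 8 (44.4%) were higher and 5 (27.8%) were lower. Epha6, a receptor, measured 29.2 to 62.4 CPM (median 37.4) in hippocampus and 5.35 to 11.2 CPM (median 8.99) in PFC, with a log2 difference of 2.16 (SE 0.24, adjusted p = 6.97e-10), and the receptor Epha7 one of 1.44 (SE 0.23, adjusted p = 1.33e-06). The transmembrane ligand Efnb3 measured 156 to 201 CPM (median 168) in hippocampus and 34.7 to 85.2 CPM (median 56.6) in PFC, with a log2 difference of 1.55 (SE 0.13, adjusted p = 6.00e-13). The ligand Efna5 went the other way, at 2.67 to 12.7 CPM (median 6.88) in hippocampus and 36.3 to 51 CPM (median 46.4) in PFC, with a log2 difference of -2.59 (SE 0.25, adjusted p = 2.15e-11).

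Of 19 genes of C1q-like, cerebellin and related synapse organisers, 6 (31.6%) were higher and 7 (36.8%) were lower. C1ql2, described above, and C1ql1 were higher, the latter with a log2 difference of 0.78 (SE 0.12, adjusted p = 7.65e-07). Cbln2, a cerebellin that bridges neurexins and delta glutamate receptors, was lower, at 1.48 to 8.45 CPM (median 4.00) in hippocampus and 29.1 to 44.7 CPM (median 36.7) in PFC, with a log2 difference of -2.99 (SE 0.29, adjusted p = 2.80e-11). The neurexin-binding adhesion proteins Lrrtm1 and Lrrtm3 went apart, at 1.14 (SE 0.10, adjusted p = 5.45e-13) and -1.16 (SE 0.15, adjusted p = 3.62e-08), neither with overlapping ranges.

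Of 10 neurotrophin genes tested, 4 (40%) were higher and 2 (20%) were lower. Ntf3, neurotrophin 3, measured 2.53 to 4.75 CPM (median 3.71) in hippocampus and 0.243 to 0.604 CPM (median 0.351) in PFC, with a log2 difference of 3.16 (SE 0.42, adjusted p = 3.20e-08). The TrkB receptor gene Ntrk2 did not pass, at -0.10 (SE 0.08, adjusted p = 0.365). The sorting receptors Sorcs1 and Sorcs2 differed in direction: Sorcs1 had a log2 difference of -1.60 (SE 0.21, adjusted p = 3.09e-08), and Sorcs2 one of 0.52 (SE 0.09, adjusted p = 1.26e-05).

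Corticosteroid receptors divided the regions. Nr3c2, the mineralocorticoid receptor, measured 126 CPM at the lowest, 140.2 at the median and 220.1 at the highest of the hippocampal libraries and 31.2 to 46.6 CPM (median 34.9) in PFC, 4.13-fold higher, with a log2 difference of 2.05 (SE 0.20, adjusted p = 2.14e-11). Nr3c1, the glucocorticoid receptor, was lower, at 60.1 to 75.3 CPM (median 69.6) in hippocampus and 92.5 to 120.5 CPM (median 109) in PFC, with a log2 difference of -0.64 (SE 0.08, adjusted p = 1.99e-08). Neither overlapped between the regions. Of the 14 genes of the list, 5 (35.7%) were higher and 5 (35.7%) were lower. Fkbp5, a co-chaperone induced by glucocorticoids, and Hsd11b1, which regenerates active corticosteroid, were higher, at 1.11 (SE 0.15, adjusted p = 8.39e-08) and 0.94 (SE 0.15, adjusted p = 2.82e-06). Per1, also induced by glucocorticoids, was among the lower members of the list, and its values are given with the inhibitor libraries below.

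Immediate early genes, which neurons induce within minutes of activity, held calls near the shares of all genes: of 25 tested, 6 (24%) were higher, 5 (20%) were lower and 14 did not pass. Jun, a subunit of AP-1, measured 119.5 to 166 CPM (median 160.0) in hippocampus and 41 to 54.7 CPM (median 47) in PFC, with a log2 difference of 1.70 (SE 0.19, adjusted p = 1.23e-09). Nr4a3, an orphan nuclear receptor, measured 57.1 to 91.6 CPM (median 77.3) in hippocampus and 5.63 to 27.2 CPM (median 13.3) in PFC, with a log2 difference of 2.37 (SE 0.28, adjusted p = 2.93e-09). Egr1, a zinc finger factor, was lower, at 67.2 to 153 CPM (median 105) in hippocampus and 159 to 263 CPM (median 235) in PFC, with a log2 difference of -0.98 (SE 0.20, adjusted p = 7.15e-05). Homer1, whose short form is activity-induced, was lower, at -0.89 (SE 0.16, adjusted p = 2.49e-05), and this gene-level value does not separate its forms.

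Of 20 leptin and insulin signalling genes, 4 (20%) were higher and 4 (20%) were lower, near the shares of all genes. Foxo1, a target of insulin signalling, measured 40.7 to 105 CPM (median 57.8) in hippocampus and 13.9 to 34.6 CPM (median 20.1) in PFC, with a log2 difference of 1.54 (SE 0.18, adjusted p = 1.94e-09), and its relative Foxo3 went the other way, at -0.68 (SE 0.10, adjusted p = 2.42e-07). Igfbp6, a binding protein of insulin-like growth factors, measured 8.33 to 20.3 CPM (median 10.8) in hippocampus and 48.7 to 74.7 CPM (median 61.7) in PFC, with a log2 difference of -2.28 (SE 0.23, adjusted p = 3.77e-11). Pik3r1, a regulatory subunit of PI3-kinase, was lower, at -0.76 (SE 0.07, adjusted p = 5.59e-12), with ranges apart.

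The regional difference was then read in the inhibitor libraries. They shared the filter and the estimate of the spread with the saline libraries, so the agreement below is not independent. The protocol names the compounds mPD5 (56 mg/kg) and UCCB01-147 (25 mg/kg), which are known as inhibitors of PICK1 and PSD-95, and the labels name the groups PICK1i and PSD-95i, with 8 libraries of each region in each. After PICK1i, 2897 genes (18.5%) were higher in hippocampus than in PFC and 2859 (18.3%) were lower, and 474 (3.03%) exceeded 2-fold. After PSD-95i the numbers were 3613 (23.1%), 3433 (21.9%) and 674 (4.3%). Of the 556 genes over 2-fold apart after saline, 549 (98.7%) passed in the same direction after PICK1i and 553 (99.5%) after PSD-95i. For C1ql2 the log2 difference was 7.63 with saline, 7.72 with PICK1i and 7.74 with PSD-95i. For Lamp5 they were -2.63, -3.13 and -3.24, and for Gria1 1.78, 1.56 and 1.99, in the same order. After PICK1i, 2 of the 556 had the opposite sign, both singled out after their values were seen: Alb, the albumin gene, at -5.72 after saline and 1.62 after PICK1i (adjusted p = 0.301), and Stoml3, a membrane protein, at -1.31 after PICK1i (adjusted p = 0.123). After saline Stoml3 had 109 counts over the hippocampal libraries and 1 over the PFC libraries, a ratio of 128 (95% exact interval 22.6 to 5118, counting error only). Alb measured 0 to 0.345 CPM (median 0.124) in hippocampus and 0.0863 to 43.5 CPM (median 0.731) in PFC after saline, with 43.5 CPM in PFC replicate 4, 8.61 in replicate 1 and 2.74 in replicate 3, so its difference rests on these libraries. When any 1 of the 3 was left out, it fell under the filter on low counts and was not tested.

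**Figure D5:**
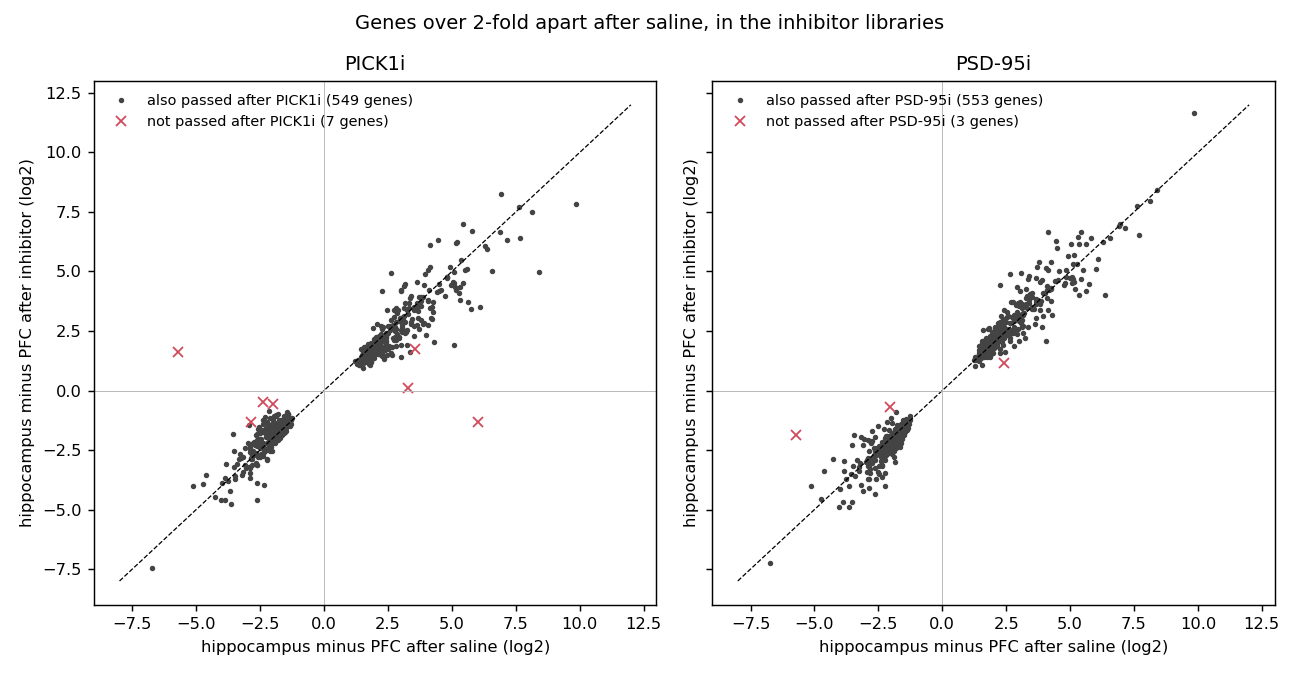
Log2 difference between hippocampus and PFC after PICK1i (left) and PSD-95i (right) on the vertical axes against the difference after saline (horizontal axes) for the 556 genes shown to exceed 2-fold after saline; crosses did not pass after the inhibitor, and the dashed line marks equal differences. After PICK1i 549 of 556 genes passed in the same direction, and after PSD-95i 553.

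The difference between those contrasts was also tested for each gene. It passed for 1 of 15658 genes (0.00639%) between PICK1i and saline and for 0 genes (0%) between PSD-95i and saline in edgeR's quasi-likelihood test, where 605 and 428 genes had an unadjusted p under 0.05. The gene was Per1, a core component of the circadian clock that glucocorticoids also induce. Its level after saline was 115 to 139 CPM (median 128) in hippocampus and 162 to 193 CPM (median 174) in PFC, and its log2 difference was -0.45 (SE 0.07, adjusted p = 1.25e-06). After PICK1i the log2 difference was -0.99, a change of the contrast by -0.54 (adjusted p = 0.0282).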

How the data were processed

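Poly(A)-selected RNA from hippocampus and PFC was sequenced as 52-bp paired-end reads from TruSeq Stranded mRNA libraries, per the labels' protocols. The deposited values are estimated counts per gene, which the authors obtained with Salmon, and the submitters' processing notes also name bcl2fastq 2.20.0, STAR and GRCm38; the sources used here give neither the versions of STAR and Salmon nor the strand setting of the counting. Of 153 genes named, 47 overlap another annotated gene, so some of their reads may be shared. Symbols are those of the deposited table, which holds 45706 genes, and 45143 of the identifiers were found in GENCODE M21 (GRCm38).

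The estimated counts were rounded to whole numbers. Genes were kept by edgeR's filterByExpr (minimum count 10, minimum total 15), which a gene can meet through libraries of 1 region alone, scaled by TMM and fitted with edgeR 4.0.16 (quasi-likelihood F test, robust) over all 47 libraries in 6 groups, with no covariates. Benjamini-Hochberg adjusted p-values under 0.05 over all tested genes were called, and glmTreat with a log2 threshold of 1 gave the calls over 2-fold. Standard errors are the log2 difference divided by the square root of F, and log2 CPM used a prior count of 2. Single values per library were compared with exact permutation tests. Alternatives were RLE scaling, other filters on low counts, DESeq2 1.42.0, limma 3.58.1 (voom with sample weights), summed transcript counts, only the saline libraries, a stricter threshold, the replicate number as a block, and leaving libraries out. Figures were drawn with matplotlib 3.10.9.

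The regions and groups to compare, the gene lists and the alternatives were chosen with earlier results of these data known. Named genes were the 4 region markers, Dlg4 and Pick1, the 10 genes per direction with the smallest p for exceeding 2-fold, the 10 per direction with the largest differences at a mean of at least 10 CPM in the higher group, and in each list up to 3 called members per direction with the smallest p and up to 3 of the highest level that did not pass; predicted gene models were not named, and some genes the rule selects are not reported here. No 2 libraries of a group agreed within sampling noise (chi-square per gene of at least 4.15 in hippocampus and 3.18 in PFC). Promoter sequences came from RefSeq on GRCm38.p6.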

Additional observations from a re-analysis of the deposited data

Results flagged for a closer look

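In each saline group, single libraries that lay apart from the rest were looked for by Dixon's test in the 153 named genes and in the list scores. It marked 35 of 306 gene and group combinations and 7 list scores, where chance alone marks about 1 in 20. Hippocampus replicate 1 accounted for 10 of these, PFC replicate 4 for 9 and PFC replicate 1 for 5.

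In hippocampus replicate 1, striatal genes were high. Rgs9 measured 249 CPM against 9.07 to 16.7 in the other hippocampal libraries, Drd2 97.3 against 0.939 to 3.79, Ppp1r1b 599 against 28.5 to 52.1 and Penk 571 against 30.8 to 47.9, and the striatal score was 7.53 against 2.74 to 3.01. The same library was low in Gpr161 (22 CPM against 53.4 to 99.3) and in the CA1 score (3.99 against 4.9 to 5.48), and high in Flt1 (93.4 against 74 to 81.7), Grik2 (85.1 against 51.2 to 59.7) and Grm3 (51.9 against 36.3 to 41.4). PFC replicate 1 was high in Ppp1r1b (174 CPM against 70.3 to 96.6), Penk (120 against 36.3 to 58.8) and Foxo1 (34.6 against 13.9 to 21.4) and low in Pdzrn3 (21.3 against 44.4 to 86). Its Ccdc153 was 0.104 CPM and that of PFC replicate 3 in Stoml3 0.119, each from 1 count, against 0 in the others.

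PFC replicate 4 was low in several cortical genes. The deep-layer genes Hs3st4 and Fezf2 measured 17.9 CPM (others 41.8 to 71.1) and 14.1 CPM (others 29 to 42.6). Myl4 was at 4.53 (others 13.3 to 24.2), Trbc2 at 5.08 (others 9.29 to 14.3), Col24a1 at 8.1 (others 18.5 to 33.9), Cdh9 at 3.71 (others 9.42 to 21.4) and C1ql1 at 4.94 (others 6.43 to 7.43). It was high in Gsg1l, at 209 CPM (others 164 to 178), and in the dentate score, at 3.3 (others 2.92 to 3.09). It is the library with the highest Alb, at 43.5 CPM.

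Hippocampus replicate 5 had 5250 CPM of Ttr (others 49.7 to 257), 180 CPM of Kl (others 20.8 to 45.3), a choroid plexus score of 6.35 (others 2.04 to 3.08) and a leptin and insulin signalling score of 5.22 (others 4.83 to 4.95). Replicate 4 was high in Gria2 (992 CPM against 719 to 795) and Grin2b (856 against 546 to 586), and low in Pick1 (37.4 against 43.5 to 48.2) and in the deep-layer score (3.22 against 3.79 to 4.18). Replicate 2 had 12 CPM of the dentate gene Lct (others 58.4 to 113) and 175 CPM of Nos1 (others 104 to 129). Replicate 6 was low in Lhx9 (10.2 CPM against 18.3 to 23.5) and Nrp2 (59.9 against 82.5 to 105) and high in Kcns1 (21.4 against 12.6 to 15.6).

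In the remaining PFC libraries, replicate 6 was low in Prox1 (5.88 CPM against 9.36 to 13.5) and high in Ak7 (0.464 against 0.104 to 0.213), replicate 7 was low in the olfactory score (2.37 against 2.63 to 2.85) and replicate 8 was high in Gabra2 (69.6 CPM against 46.1 to 52.5).

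Per1 was the gene whose regional difference passed the test of a change between saline and PICK1i, by -0.54 on the log2 scale (edgeR, adjusted p = 0.0282).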

How the results depend on the processing

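The counts of called genes stayed within 1.5 times their value in each alternative run. Against 5994 called and 556 over 2-fold, RLE scaling gave 5994 and 557, no filter on low counts 6044 and 674, a filter of 1 CPM in 7 libraries 6088 and 592, DESeq2 6101 and 435, voom 7333 and 531, summed transcript counts 5994 and 556, only the saline libraries 6362 and 512, an adjusted p under 0.01 4326 and 437, and leaving out 1 library at a time 5520 to 5938 and 491 to 596. Summed transcript counts gave the very same calls (100% shared), so that run repeats the main one and is no separate check. Without the 3 libraries with markers of other tissue the counts were 5042 and 484, or 5825 and 537 in the saline libraries alone, a setting chosen after seeing the data. With the replicate block they were 5958 and 570; same-numbered libraries of the regions had deviations correlated at -0.065 to 0.21, and in 2 of 7 cases a library correlated best with its own number, so the numbers were not taken as pairs. Of the 556 genes, DESeq2 called 430 (77.3%) over 2-fold and the saline libraries alone 440 (79.1%), and none changed sign in the settings run. For the named genes, 16 calls and 35 calls over 2-fold were lost over these settings, and 11 and 30 when 1 library was left out. Genes that did not pass in the main run gained 13 calls over these settings and 1 when 1 library was left out. Gains over 2-fold were not counted. Signs changed for genes that did not pass or that rest on hippocampus replicate 1. Under DESeq2, Rgs9 was at -0.30, Drd2 at -0.59, Ppp1r1b at -1.17 and Penk at -0.49; voom gave -0.95 for Ppp1r1b and -0.071 for Penk; the replicate block gave -0.19 for Ppp1r1b. Without the 3 libraries Ppp1r1b was at -1.23 and Penk at -0.17. In the saline libraries alone, again without these 3, they were at -1.22 and -0.16. Leaving out 1 library at a time, Rgs9 ranged from -0.29 to 2.38, Drd2 from -0.53 to 3.76, Ppp1r1b from -1.31 to 0.52, Penk from -0.52 to 1.38, Sst from -0.061 to 0.12 and Dlg4 from -0.0005 to 0.035, the lowest values of the first 4 being those without hippocampus replicate 1. Why DESeq2 and voom differ in sign was not tested. Depth limits the genes at or near 0 in PFC, such as the ciliary genes, for which a bound or a counting interval was given.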
